A study of Mus musculus with 17 samples.

Results

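Transcripts of 10 tubulin isotypes were followed in the left ventricular apex, the 5 alpha isotypes Tuba1a, Tuba1b, Tuba1c, Tuba4a and Tuba8 and the 5 beta isotypes Tubb2a, Tubb2b, Tubb4b, Tubb5 and Tubb6. They were taken by symbol from a table of 21798 genes, and all 10 passed the filter on low values. RNA was sequenced from 17 male C57Bl6/J mice that were 7 to 8 weeks old at surgery and were killed 3 weeks later. Transverse aortic constriction (TAC), which loads the left ventricle with pressure, was compared with a sham operation (Sham). Mice of either surgery were gavaged with saline vehicle (Veh) or with 29P, an oral prodrug of an RGD-mimetic peptide directed at integrin αvβ3. It was given as 6 doses of 50 μg/kg over 2 weeks from week 1 after surgery. The libraries were 5 of Sham and 3 of TAC mice on vehicle (Sham Veh, TAC Veh) and 3 of Sham and 6 of TAC mice on 29P (Sham 29P, TAC 29P). Each library had its own number in its label, which is taken here as an animal number. The authors had left out 3 further libraries, 1 of Sham 29P and 2 of TAC Veh mice, and 1 of these TAC Veh libraries was dropped because it clustered with Sham mice. None of the 3 was analysed here. Separation of TAC Veh from Sham Veh libraries is thus measured after a Sham-like library had been removed. The p-values measure the spread between these libraries. The comparisons asked how tubulin expression and the mixture of isotypes differed with surgery and with 29P.

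Microtubules are polymers of alpha and beta tubulin dimers, and each subunit is encoded by several genes of very similar sequence. Most alpha isotypes are made with a tyrosine as their last residue, which vasohibins with Svbp remove and tubulin tyrosine ligase (Ttl) adds back. In cardiomyocytes, detyrosinated microtubules are known to bear load and to resist contraction, and the microtubule network grows denser in hypertrophied hearts. Cells also tune tubulin mRNA to the pool of free dimers, through Ttc5, which recognises the nascent chain on the ribosome.

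The last residue of an isotype is encoded at the end of its coding sequence. The last 60 coding bases are therefore shown for 6 isotypes, 5′ to 3′ in transcript sense, from the GENCODE vM21 transcripts. Capitals mark the last codon before the stop codon.
Tuba1c: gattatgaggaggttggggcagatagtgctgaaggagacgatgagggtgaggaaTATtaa
Tuba4a: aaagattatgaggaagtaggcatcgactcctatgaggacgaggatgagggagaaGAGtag
Tuba8: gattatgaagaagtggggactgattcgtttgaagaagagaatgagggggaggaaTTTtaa
Tubb2a: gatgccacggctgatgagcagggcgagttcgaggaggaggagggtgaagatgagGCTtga
Tubb2b: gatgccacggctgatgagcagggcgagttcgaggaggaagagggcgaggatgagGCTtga
Tubb5: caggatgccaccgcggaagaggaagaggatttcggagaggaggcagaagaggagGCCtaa
Tuba1c ends with a tyrosine codon (TAT), as do Tuba1a and Tuba1b with a codon for the same residue, whereas Tuba4a ends with GAG and Tuba8 with TTT. Of the alpha isotypes followed here, only Tuba1a, Tuba1b and Tuba1c therefore encode the tyrosine that is removed and restored in the cycle described above. The 3 beta isotypes shown end with an alanine codon (GCT or GCC). The whole coding sequences of Tuba1a and Tuba1b were 98.3% identical, those of Tuba1b and Tuba1c 97.9% and those of Tubb2a and Tubb2b 96.5%. Across all 25 pairs of an alpha and a beta isotype, identity was 53.0 to 57.1%.

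This likeness bears on the values. The share of 50-base stretches of a member's transcript that also occur in another gene's transcript, on either strand, was 83.1% for Tuba1b, 75.5% for Tuba1a and 61.0% for Tuba1c. It was 55.5% for Tubb4b, 49.6% for Tubb2a, 48.8% for Tuba4a, 39.3% for Tubb2b and 14.7% for Tuba8, but 0.115% for Tubb5 and 0 for Tubb6. The CPM of Tubb5 and Tubb6 corresponded to whole reads in 17 of 17 libraries (within 0.06 reads), whereas those of the other 8 members did so in 0 to 3. Tubb2a and Tubb2b together with the pseudogene Tubb2a-ps2 made whole reads in 17 of 17 libraries, and so did Tubb4b with its pseudogenes and Tuba8 with the antisense gene Gm15856. Reads were thus divided between genes within these sets, also between Tuba8 and a gene on the opposite strand. The sum of Tuba1a, Tuba1b and Tuba1c was whole in 2 libraries only, and their separate values are less certain than their sum. Tuba4a (chr1:75214228-75219865 of mm10, minus strand) overlaps Stk16 on the plus strand, whose CPM was 8.82 to 24.9 against 249 to 501 for Tuba4a. The sum of Tuba4a and Stk16 made whole reads in only 4 of 17 libraries, so the sharing of Tuba4a reads was not accounted for.

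Depth was estimated at 14.2 to 23.8 M reads per library, with library S14 (Sham 29P) the lowest. This gave 19.4 to 231 reads for Tubb2b, the rarest member, and 115 or more in each library for the others. Library S14 had the lowest CPM of all 17 libraries for each of the 10 members. Libraries S19 and S20 (Sham Veh) and S18 (TAC 29P) held atrial transcripts. Their summed CPM of 6 atrial markers was 1752 to 2696 against 14.7 to 42.9 in the other 14, with Sln and Bmp10 at 0 in all TAC Veh libraries and Bmp10 at 0 in all Sham 29P libraries. Cardiomyocyte transcripts were present throughout, with a summed CPM of 6 cardiomyocyte markers of 24490 to 40150. This sum does not tell ventricular from atrial tissue. Mitochondrially encoded genes took 29.1 to 40.0% of the CPM in Sham and 23.6 to 29.4% in TAC libraries. With the deposited scaling, the median gene among the 16218 tested had a log2 fold change of 0.35 for TAC Veh against Sham Veh, and of 0.01 after rescaling with TMM factors. Differences in CPM are read against that shift below, and shares within a library do not depend on it.

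Tuba4a was the most abundant member in Sham Veh mice. Its CPM per kb of transcript averaged 139 ± 29.8 (SD, n = 5), and it stood above the next member in every library. Tubb4b at 91.5 ± 15.4 and Tuba1b at 84.7 ± 19.8 followed, and their order varied between libraries. Tuba8 at 50.4 ± 12.7 and Tuba1a at 50.1 ± 8.46 were likewise not separated, and Tubb5 (32.8 ± 6.01) and Tubb2a (21.0 ± 4.68) came next. Tubb6 (12.7 ± 3.63) and Tuba1c (10.6 ± 1.74) overlapped, and Tubb2b (1.86 ± 0.982) was the lowest. In TAC Veh mice the first place was shared. Tuba1b (114 ± 32.1), Tubb4b (109 ± 23.2) and Tuba4a (107 ± 14.6; SD, n = 3) changed places between libraries. In TAC 29P mice Tuba4a (139 ± 16.3; SD, n = 6) again had the highest mean, but not in every library.

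After TAC, 4 of the 10 isotypes were higher in Veh mice (limma adjusted p of 0.05 or less), Tubb2a, Tuba1c, Tuba1a and Tubb5, and none was lower. Among all genes tested, 22.5% were called higher and 1.91% lower. In CPM, 3 of the 10 separated all TAC Veh from all Sham Veh libraries upward, as did 27.6% of all genes. Tubb2a, a beta isotype best known from neurons, had a CPM of 30.03, 26.1, 29.6, 38.9 and 44.3 in the Sham Veh libraries and of 84.2, 45.6 and 78.4 in the TAC Veh libraries. All 3 TAC Veh libraries lay above the Sham Veh libraries, the lowest by a narrow margin. Its log2 fold change was 1.02 (SE 0.25, limma adjusted p = 0.0121). Tuba1c was also without overlap, at 17.8 to 26.8 CPM in Sham Veh and 31.6, 39.1 and 38.4 in TAC Veh libraries, with a log2 fold change of 0.80 (SE 0.23, limma adjusted p = 0.0227). Tuba1a, an alpha isotype abundant in developing neurons, had 81.7, 70.8, 87.8, 107 and 104 CPM in Sham Veh and 160, 109 and 159 in TAC Veh libraries. The lowest TAC Veh library, S12, barely exceeded the highest Sham Veh library, and the log2 fold change was 0.66 (SE 0.21, limma adjusted p = 0.0335). Tubb5, a broadly expressed beta isotype, had 85.5, 65.4, 79.5, 96.8 and 107 CPM in Sham Veh and 162, 100 and 152 in TAC Veh libraries. Here S12 fell within the Sham Veh range, and the log2 fold change was 0.66 (SE 0.23, limma adjusted p = 0.0432).

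**Figure D1:**
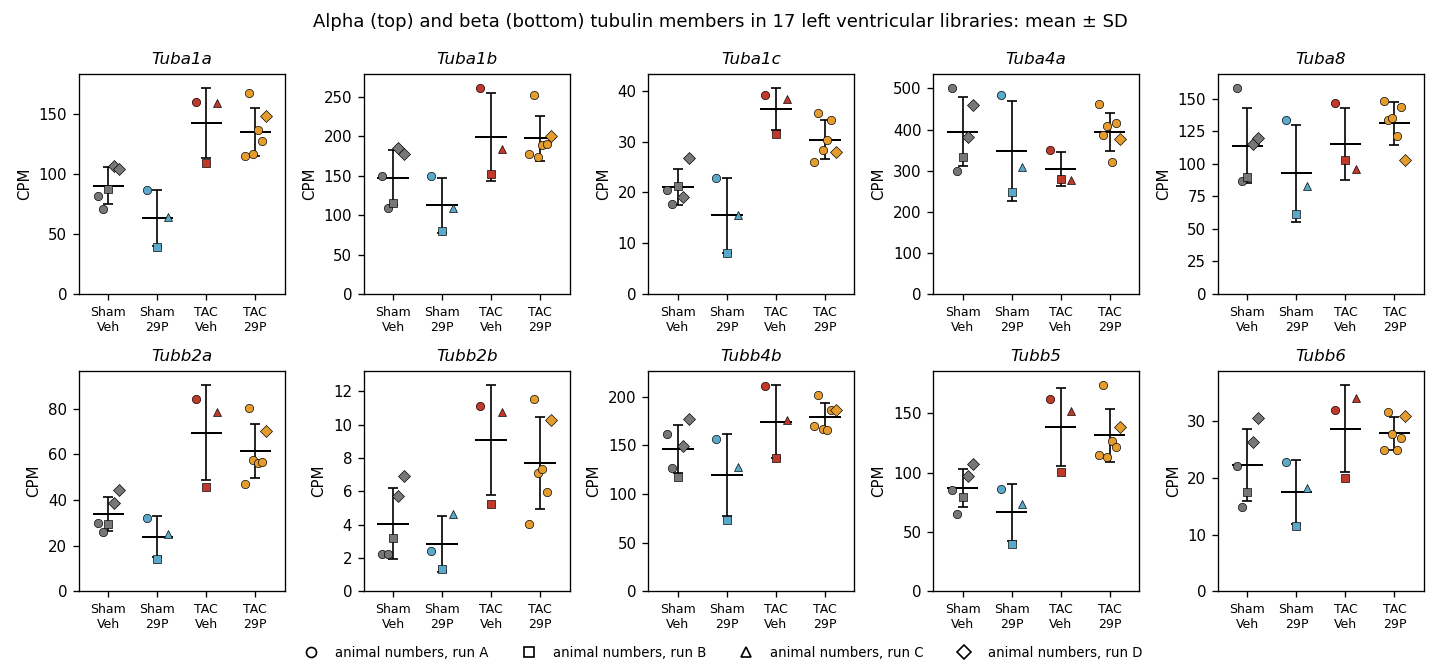
CPM of each member (vertical axes, from 0) in the 4 groups, with 1 point per library, the shape giving the run of animal numbers it belongs to, and lines for the mean ± SD. The TAC Veh libraries lie above all Sham Veh libraries for Tuba1a, Tuba1c and Tubb2a, Tuba4a has its lowest mean (303 CPM) in TAC Veh mice, and library S14 is the lowest Sham 29P point in each panel.

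Tubb2b had the largest point estimate, a log2 fold change of 1.24, but also the widest error (SE 0.45, limma adjusted p = 0.0510). Its CPM was 2.23, 2.24, 3.18, 5.72 and 6.92 in Sham Veh against 11.2, 5.25 and 10.8 in TAC Veh libraries, and the highest Sham Veh values came from the libraries S19 and S20 with atrial transcripts. Without the 3 libraries that held atrial transcripts it was called (log2 fold change 1.77, limma adjusted p = 0.0204), which made 5 members called higher, against 13.8% of all genes; that set of libraries was chosen after seeing the data. Tuba1b (0.43), Tubb6 (0.38), Tubb4b (0.25) and Tuba8 (0.02) were not called and lay near or below the median of all genes. Tuba4a was the only member with a negative estimate. It had 501, 299, 333, 383 and 459 CPM in Sham Veh against 351, 280 and 278.5 in TAC Veh libraries, a log2 fold change of −0.36 (SE 0.19, limma adjusted p = 0.162), and 93.6% of all genes tested had a higher one.

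The calls depended on the scaling. With TMM factors none of the 10 members was called higher in TAC Veh than in Sham Veh mice. Tuba4a was called lower instead (log2 fold change −0.70, limma adjusted p = 0.0113), where 5.69% of all genes were lower and 3.92% higher. Tubb2a then had a log2 fold change of 0.68 (limma adjusted p = 0.0544), and Tuba8 (−0.31) and Tubb4b (−0.08) turned negative without being called. Rescaling moves every estimate of a comparison by the same amount, so it could not change their order. Tubb2b and Tubb2a had the highest estimates and Tuba4a the lowest. With TMM factors and without S14 and the 3 libraries holding atrial transcripts, a setting added after seeing the data, Tuba1a, Tuba1c, Tubb2a, Tubb2b and Tubb5 were called higher and Tuba4a lower, beside 5.72 and 5.29% of all genes. The calls also leaned on single libraries, as did those of all genes. Leaving out S2 (TAC Veh) left 0 of the 10 and 2.97% of all genes called, leaving out S16 (TAC Veh) 0 and 13.8%, and leaving out S6 (Sham Veh) 1 and 15.3%.

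In mice treated with 29P, TAC was compared with Sham in 6 against 3 libraries, and 8 of 10 members were called higher and none lower, against 31.4 and 1.12% of all genes. Tubb2b rose by a log2 fold change of 1.55 (SE 0.43, limma adjusted p = 0.0164), Tubb2a by 1.41 (SE 0.25, limma adjusted p = 0.00221) and Tuba1a by 1.15 (SE 0.20, limma adjusted p = 0.00241). The other members called were Tuba1c (1.09), Tubb5 (1.04), Tuba1b (0.84), Tubb6 (0.72) and Tubb4b (0.65), and Tuba8 (0.57, limma adjusted p = 0.0554) and Tuba4a (0.23) were not. The low values of S14 weighed on this comparison. Without it 4 members were called, against 6.45% of all genes higher, and with TMM factors 4 were called as well, against 6.1% higher and 4.59% lower. In both cases these were Tuba1a, Tuba1c, Tubb2a and Tubb5. With TMM factors and without S14 and the 3 libraries holding atrial transcripts, none was called, and 2.27% of all genes were.

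Over both treatments, 9 TAC against 8 Sham libraries, the same 8 members were called higher and none lower, against 49.4 and 3.08% of all genes. The log2 fold changes were 1.40 for Tubb2b, 1.21 for Tubb2a, 0.94 for Tuba1c, 0.90 for Tuba1a, 0.85 for Tubb5, 0.64 for Tuba1b, 0.55 for Tubb6 and 0.45 for Tubb4b. Those of Tuba8 (0.30, limma adjusted p = 0.121) and Tuba4a (−0.07, limma adjusted p = 0.695) did not pass. Only Tuba1a and Tubb2a separated all TAC from all Sham libraries in CPM, which 9.52% of all genes did in that direction. With TMM factors Tubb2b, Tubb2a, Tuba1c, Tuba1a and Tubb5 were called higher and Tuba4a lower (log2 fold change −0.40, limma adjusted p = 0.0139), against 14.1% of all genes higher and 12.9% lower. The median log2 fold change was 0.64 for the alpha and 0.85 for the beta members with the deposited scaling, beside 0.36 over all genes. With TMM factors it was 0.30 and 0.51, beside 0.02 over all genes.

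**Figure D2:**
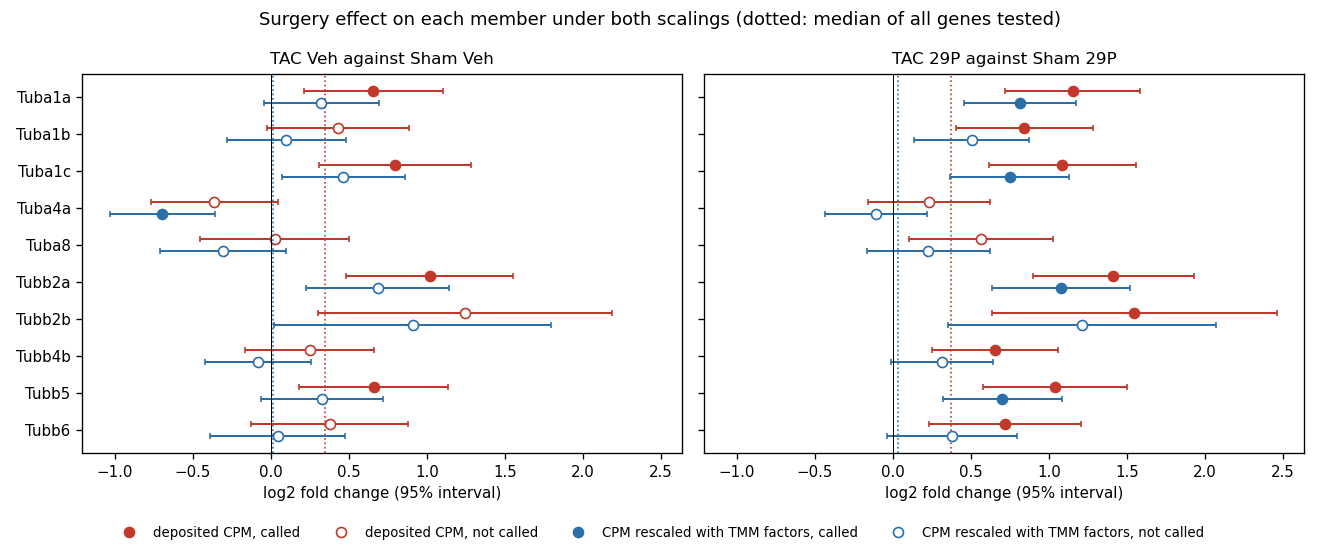
Log2 fold change of each member (horizontal axes, with its 95% interval) for TAC Veh against Sham Veh and for TAC 29P against Sham 29P, from deposited CPM in red and from CPM rescaled with TMM factors in blue. Filled points have a limma adjusted p of 0.05 or less and dotted lines are the median of all genes tested, 0.35 and 0.37 with the deposited scaling; Tuba4a lies to the left of that median in both panels.

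The members together made up 0.0578 to 0.147% of the CPM of a library. Sham Veh mice had a summed CPM of 1061 ± 194 (SD, n = 5) and TAC Veh mice one of 1217 ± 238 (SD, n = 3). On 29P the sums were 862 ± 301 (SD, n = 3) for Sham and 1297 ± 99.0 (SD, n = 6) for TAC. The Sham Veh libraries ranged from 819 to 1253 and the TAC Veh libraries from 984 to 1458, so these groups overlapped. The mean log2 difference of 0.20 became −0.13 with TMM factors, so in Veh mice the tubulin total gave no stable direction. On 29P the TAC libraries ranged from 1180 to 1474 and the Sham libraries from 578 to 1178. These did not overlap, by a narrow margin, and the lowest Sham value was that of S14. In this comparison 83.7% of all genes had a positive log2 fold change with the deposited scaling, with a median of 0.37. The tubulin total on 29P was not computed with TMM factors. The beta members alone summed to 293 ± 53.4 CPM in Sham Veh and 420 ± 99.9 in TAC Veh mice, and the alpha members to 768 ± 146 and 797 ± 146.

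In Veh mice the mixture of isotypes differed with surgery more clearly than the total. Shares were computed within each library from CPM per kb, so they add up to 100% and a lower share of one isotype raises the others. Tuba4a made up 31.9, 27.4, 28.2, 25.3 and 27.5% of the members' sum in the Sham Veh libraries and 17.3, 20.8 and 16.5% in the TAC Veh libraries. Every TAC Veh library analysed was below every Sham Veh library, and the mean was 9.86 percentage points lower. Tubb2a took 3.37, 4.22, 4.42, 4.53 and 4.68% in Sham Veh and 7.31, 5.98 and 8.18% in TAC Veh libraries, again without overlap. Tuba1a averaged 10.2 ± 1.36% and 13.3 ± 1.30%, Tubb5 6.64 ± 0.530% and 8.74 ± 0.834%, and Tuba1c 2.18 ± 0.327% and 3.13 ± 0.327%, all 3 without overlap. In all, 5 of 10 members did not overlap, 4 higher and 1 lower. Of all genes, 10.2% did not when their CPM was set against the members' summed CPM, without division by length. The percentages of all genes beside shares below were computed likewise. No test was run on the shares.

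**Figure D3:**
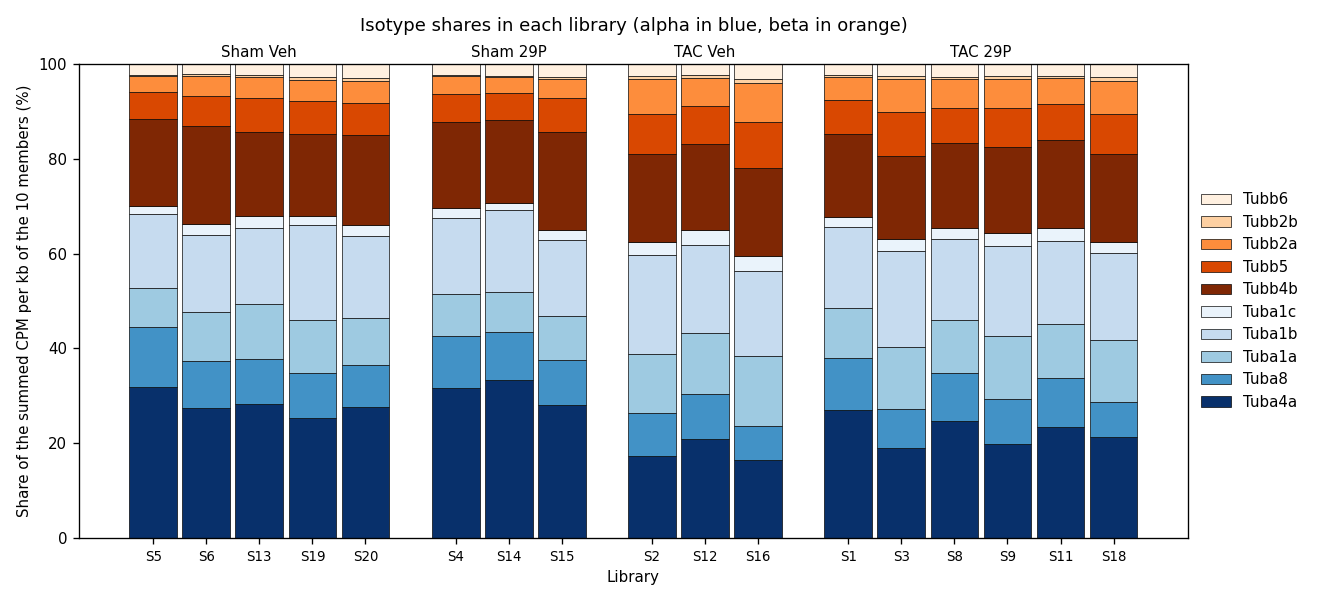
Share of each isotype in the summed CPM per kb of the 10 members (vertical axis, percent), with 1 bar per library and the libraries arranged by group, alpha isotypes in blue and beta isotypes in orange. Tuba4a, at the foot of the bars, takes 25.3 to 33.3% in the Sham libraries and 16.5 to 27.0% in the TAC libraries, whereas Tubb4b stays between 17.4 and 20.6% in all 17.

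The shares of Tubb4b, Tubb6, Tuba8, Tuba1b and Tubb2b overlapped between Sham Veh and TAC Veh libraries. Tubb4b, a widely expressed beta isotype, took 18.6 ± 1.25% and 18.3 ± 0.260%, and Tubb6 took 2.53 ± 0.339% and 2.73 ± 0.464%. Tuba8, an alpha isotype of striated muscle and testis, took 10.2 ± 1.43% and 8.61 ± 1.29%, and Tuba1b 17.03 ± 1.77% and 19.1 ± 1.66%. Tubb2b made up 0.367 ± 0.149% and 0.684 ± 0.163%. Without the 3 libraries that held atrial transcripts, 8 of the 10 members did not overlap, as did 14.6% of all genes in this set of 3 against 3 libraries. When shares were taken of CPM without the division by length, Tuba4a stood at 37.1 ± 2.66% in Sham Veh and 25.2 ± 2.87% in TAC Veh mice, and the number of members without overlap was again 5.

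In 29P-treated mice the same 5 isotypes separated TAC from Sham, where 11.5% of all genes did. The share of Tuba4a was 28.1 to 33.3% in the 3 Sham 29P libraries and 18.99 to 27.0% in the 6 TAC 29P libraries. That of Tubb2a was 3.38 to 4.06% and 4.84 to 6.99%, that of Tuba1a 8.29 to 9.18% and 10.6 to 13.3%, that of Tubb5 5.68 to 7.15% and 7.20 to 9.15%, and that of Tuba1c 1.55 to 2.14% and 2.18 to 2.77%. The gaps for Tuba4a, Tubb5 and Tuba1c were small beside the spread of either group. Library S14, low in CPM, lay at one end of its group for Tuba4a (33.3%) and Tubb2a (3.38%) but next to S4 (31.6 and 3.69%).

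The libraries fall into 4 runs of the numbers taken here as animal numbers, and each run held TAC and Sham mice. Treatment was not balanced over the runs, so comparisons within a run do not isolate surgery from 29P. The largest run held 5 TAC 29P libraries and 1 TAC Veh library. The run of S15 and S16 set 1 TAC Veh against 1 Sham 29P library. That of S18, S19 and S20 set 1 TAC 29P against 2 Sham Veh libraries. In all 4 runs every TAC library had a lower Tuba4a share than every Sham library of that run. Tubb2a, Tubb2b, Tuba1a and Tubb5 were higher in all 4. Among all genes set against the members' summed CPM, 2.98% were lower and 4.58% higher in every run. For Tuba4a the values were 17.3 to 27.0% against 27.4 to 31.9% in the largest run (6 TAC and 3 Sham libraries), and 21.3% against 25.3 and 27.5% in the run of S18, S19 and S20, where both surgeries held atrial transcripts. For Tubb2a they were 4.84 to 7.31% against 3.37 to 4.22%, and 6.99% against 4.53 and 4.68%. Tuba1b was higher in 3 of 4 runs, Tuba1c in 2, and Tuba8 was lower in 2.

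Within the alpha family, the 3 isotypes that encode the last tyrosine took a larger part in TAC than in Sham mice of each treatment. Tuba1a, Tuba1b and Tuba1c together made up 43.6 ± 4.40% of alpha CPM per kb in Sham Veh (range 36.5 to 48.6%) and 57.1 ± 3.59% in TAC Veh mice (53.2 to 60.3%). The corresponding values were 39.8 ± 2.01% in Sham 29P (38.5 to 42.1%) and 50.8 ± 5.06% in TAC 29P mice (43.9 to 56.7%). TAC and Sham libraries did not overlap in either treatment or within any of the 4 runs. All runs except the largest held only 1 TAC library. Over both treatments the libraries overlapped, because the TAC 29P range reached into that of Sham Veh. For the family shares and the ratio in this paragraph, no percentage of all genes was computed. The division of reads among Tuba1a, Tuba1b and Tuba1c enters only through their unlike lengths (1803, 1743 and 1982 bases), while reads shared with pseudogenes and with other genes enter fully. Within the beta family, Tubb2a and Tubb2b together made up 14.2 ± 1.58% in Sham Veh and 20.7 ± 1.93% in TAC Veh mice, while Tubb4b stood at 57.4 ± 3.32% and 48.8 ± 2.92%. Tubb2b was 10.2 ± 2.93% of the CPM of this pair in Sham Veh and 11.4 ± 0.925% in TAC Veh mice. The ratio of alpha to beta CPM per kb was 2.10 ± 0.160 in Sham Veh (1.94 to 2.34) and 1.67 ± 0.195 in TAC Veh mice (1.47 to 1.86), without overlap. In 29P-treated mice it was 2.18 ± 0.297 and 1.84 ± 0.157, and the groups overlapped.

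**Figure D4:**
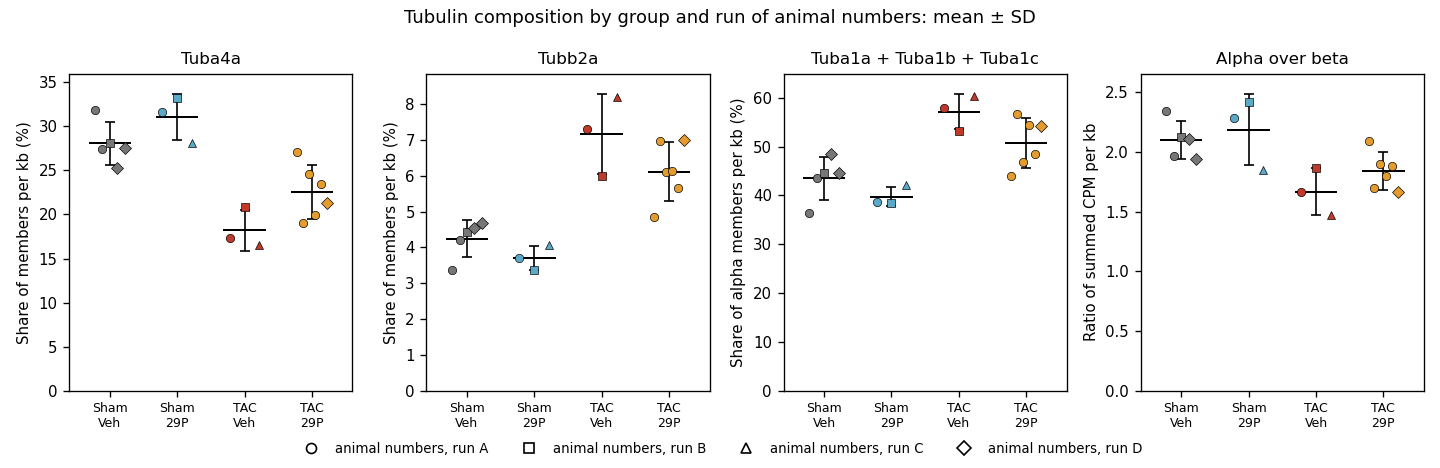
From left to right, the share of Tuba4a and of Tubb2a in the members' sum, the share of Tuba1a, Tuba1b and Tuba1c in the alpha members (percent of CPM per kb) and the ratio of alpha to beta members, with 1 point per library and lines for the mean ± SD. Tuba4a is lower and Tubb2a higher in TAC than in Sham libraries of each treatment, and the ratio of alpha to beta has a mean of 2.10 in Sham Veh and 1.67 in TAC Veh mice.

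Within TAC mice, no member was called for 29P against Veh by limma, none reached an unadjusted p of 0.05, and no gene of the 16218 was called (0%), with 1.98% at the unadjusted threshold. The largest estimate among the members was that of Tuba4a, at 278.5 to 351 CPM in the 3 TAC Veh and 322 to 461.98 CPM in the 6 TAC 29P libraries. Its log2 fold change was 0.38 (95% interval −0.01 to 0.78, limma unadjusted p = 0.0562). It was 0.41 with TMM factors (limma unadjusted p = 0.0164) and 0.09 when the animal-number run was a term of the fit (limma unadjusted p = 0.661). Only the largest run held both TAC groups, with S2 as its 1 TAC Veh library. The share of Tuba4a was 18.2 ± 2.31% in TAC Veh and 22.5 ± 3.05% in TAC 29P mice, with overlapping ranges. The share of Tuba1c was 3.13 ± 0.327% and 2.47 ± 0.231%, and the lowest TAC Veh library (2.75%) lay just below the highest TAC 29P library (2.77%). Taken of CPM without division by length, the Tuba1c share was 2.68 to 3.21% and 2.01 to 2.61%, and this was the 1 member without overlap, as were 2.51% of all genes set against the members' sum. Per kb no member was without overlap. Estimates of the other 9 members ran from −0.26 (Tuba1c) to 0.20 (Tuba8), and the 95% intervals, such as those of Tuba1a (−0.50 to 0.36) and Tubb2a (−0.67 to 0.37), do not exclude changes of moderate size in either direction.

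In Sham mice all 10 members had lower estimates with 29P, from −0.21 (Tuba4a) to −0.57 (Tuba1a). None passed the adjusted threshold, which 0.00617% of all genes did. Tuba1a (limma unadjusted p = 0.0157), Tuba1c (limma unadjusted p = 0.0287) and Tubb2a (limma unadjusted p = 0.0450) were below 0.05 without adjustment, as were 7.49% of all genes. Without S14 the estimates of these 3 shrank to −0.26, −0.15 and −0.22, and no member was below 0.05, as were 2.58% of all genes. Without S4, the highest Sham 29P library for most members, 9 members were below 0.05, as were 17.2% of all genes. The shares of all 10 members overlapped between Sham 29P and Sham Veh, and those of 1.38% of all genes did not. The interaction of surgery and 29P, which tests whether the effect of surgery differed between treatments, was called for no member and for 0.00617% of all genes. Tuba4a alone of the 10 was past the unadjusted threshold, as 2.84% of all genes were, with 0.60 on the log2 scale (SE 0.27, limma unadjusted p = 0.0401, adjusted p = 0.998). Without S14 no member was past it (2.08% of all genes), and without S4 it was 6 members (9.62% of all genes).

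The tubulins that remain were rare. Tubb3, the beta isotype of neurons, had 0.141 to 1.52 CPM in Sham and 0.760 to 4.28 CPM in TAC libraries, and its log2 fold change in Veh mice was 1.88 (SE 0.68, limma adjusted p = 0.0521). Tubb4a had 1.23 to 3.45 and 2.64 to 4.43 CPM, with a log2 fold change of 0.38 in Veh mice (limma adjusted p = 0.287). Over both treatments Tubb3 rose by 2.05 (limma adjusted p = 0.00234), also with TMM factors (1.71, limma adjusted p = 0.00961), and Tubb4a rose by 0.77 (limma adjusted p = 0.00299), not called with TMM factors (limma adjusted p = 0.0541). The alpha and beta tubulin genes outside the 10 members together had 2.11 to 10.95 CPM per library.

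Among genes that fold tubulin and assemble dimers, 3 of 21 were called higher in TAC Veh mice and none lower, beside 22.5 and 1.91% of all genes. They were Tbcd, which helps to join and split the dimer (0.73, limma adjusted p = 0.0158), Tbcel (0.55, limma adjusted p = 0.00661) and the prefoldin subunit Pfdn1 (0.30, limma adjusted p = 0.0354). In a list of 3 genes kept for tubulin mRNA autoregulation (Ttc5, Cnot11 and Sccpdh, of which the role of Sccpdh there is uncertain), Ttc5 was called higher (0.55, limma adjusted p = 0.0416), with 8.04 to 12.5 CPM in Sham Veh and 12.9 to 16.7 CPM in TAC Veh libraries. With TMM factors none of these 4 was called, and the calls turned, with the prefoldin subunit Pfdn6 (−0.48, limma adjusted p = 0.0235) and Sccpdh (−0.37, limma adjusted p = 0.0349) lower. These 2 were chosen for naming after their values were seen.

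Of the enzymes of the tyrosination cycle, Ttl was called higher in TAC Veh mice (log2 fold change 0.63, limma adjusted p = 0.00539), at 17.6 to 28.9 CPM in Sham Veh and 35.8 to 38.3 CPM in TAC Veh libraries, but not with TMM factors (0.29, limma adjusted p = 0.0855). Vash1, which removes the tyrosine, had 2.50 to 9.34 and 9.05 to 12.4 CPM, with a log2 fold change of 1.03 (SE 0.39, limma adjusted p = 0.0601). Over both treatments it rose by 1.19 (limma adjusted p = 0.00209), also with TMM factors (0.86, limma adjusted p = 0.0156). Its partner Svbp (0.24, limma adjusted p = 0.209) and Vash2 (0.31, limma adjusted p = 0.678, 0.141 to 1.03 CPM over all libraries) were not called in Veh mice. Of the enzymes that add and remove acetyl groups, the deacetylase Hdac6 was called higher (0.74, limma adjusted p = 0.0445), but not with TMM factors (0.41, limma adjusted p = 0.229), and the acetyltransferase Atat1 was not (0.35, limma adjusted p = 0.267).

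Of 12 genes tested that add or remove glutamate or glycine chains on tubulin, 2 were called higher in TAC Veh mice, Agbl5 (0.71, limma adjusted p = 0.0207) and Tpgs2 (0.39, limma adjusted p = 0.0431), beside 22.5% of all genes. Neither was called with TMM factors, and Agtpbp1, which shortens glutamate chains, was then called lower (−0.61, limma adjusted p = 0.00988). Ttll1, the catalytic subunit of a tubulin polyglutamylase, fell. It had 25.8 to 40.7 CPM in Sham Veh and 12.6 to 18.3 CPM in TAC Veh libraries, a log2 fold change of −1.04 (SE 0.19, limma adjusted p = 0.00272), and −1.37 with TMM factors (limma adjusted p = 0.000444). It was the only gene of the microtubule lists called lower in TAC Veh against Sham Veh mice with the deposited scaling, and 1.91% of all genes were. In TAC 29P mice Ttll1 was at 17.1 to 26.3 CPM, a log2 fold change of 0.50 against TAC Veh that passed the unadjusted threshold only (limma unadjusted p = 0.0150).

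Of 22 microtubule-associated and plus-end proteins, 11 were called higher in TAC Veh mice and none lower, beside 22.5 and 1.91% of all genes. Map4, the main microtubule-associated protein of the heart, had 195 to 297 CPM in Sham Veh and 380 to 409 CPM in TAC Veh libraries, a log2 fold change of 0.66 (SE 0.11, limma adjusted p = 0.00181), and 0.33 with TMM factors (limma adjusted p = 0.0416). The largest changes in this list were those of Map1a (1.06), Map1b (0.89) and the spectraplakin Dst (0.85). Of 16 motor genes 11 were called higher, with Kif3b (0.88), the kinesin heavy chain Kif5b (0.78) and the dynein heavy chain Dync1h1 (0.75) in front. Of 12 destabilising and severing proteins 4 were called, among them Fignl1 (1.99) and Stmn2 (0.62), whereas Stmn1 was not (0.33, limma adjusted p = 0.201). With TMM factors 2 of 22 associated proteins, 1 of 16 motors and 1 of 12 destabilising proteins were called higher, against 3.92% of all genes. For 29P within TAC mice no gene of these lists was called.

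**Figure D5:**
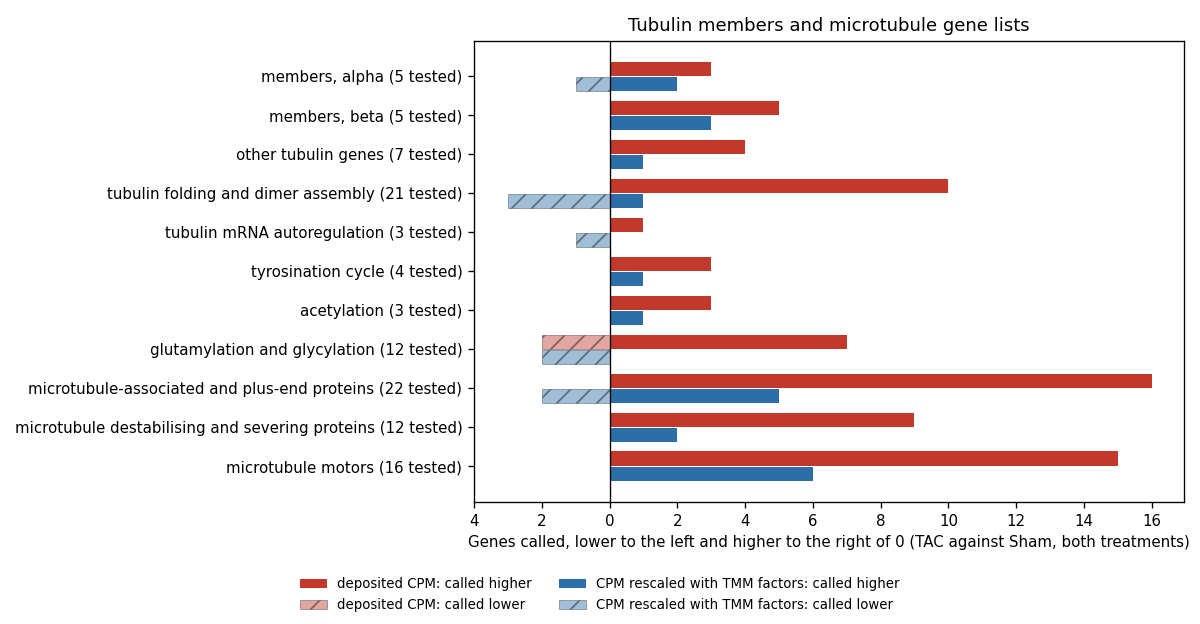
Number of genes called at a limma adjusted p of 0.05 or less for TAC against Sham over both treatments (horizontal axis; higher to the right of 0, lower to the left) in the tubulin members and the microtubule gene lists, with the deposited scaling in red and TMM factors in blue. With the deposited scaling 15 of 16 motor genes and 5 of 5 beta members were called higher, and with TMM factors 6 and 3, beside 49.4 and 14.1% of all genes.

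Markers of several other cell types differed with surgery, in bulk tissue where more cells of a type and more RNA per cell cannot be told apart. The summed CPM of 7 fibroblast markers was 776 to 1236 in Sham Veh and 1891 to 3268 in TAC Veh libraries, and 5 of 7 were called higher, led by Postn (3.43), Col1a1 (2.09) and Col1a2 (1.70) on the log2 scale. For macrophage markers it was 108 to 148 and 198 to 327 CPM, with 5 of 6 called, led by Adgre1 (1.15), C1qb (1.01) and C1qa (0.96). Proliferation markers summed to 10.3 to 24.6 and 25.0 to 50.5 CPM, with Mki67 (1.29) and Top2a (0.93) called of 6. Endothelial markers summed to 549 to 958 and 941 to 1235 CPM, with Cdh5 (0.76) called of 6, and smooth muscle and pericyte markers to 869 to 1239 and 1162 to 1610 CPM, with Cspg4 (1.24), Pdgfrb (1.06) and Rgs5 (0.43) called of 6. Neural and glial markers, Tubb3 among them, summed to 11.1 to 18.3 and 17.2 to 22.8 CPM, with Uchl1 (1.41) called of 5 tested. The median log2 fold change of these 5 was −0.35, so most of them had a negative estimate although the sum was higher. All 5 blood genes were called, led by Hba-a1 (1.47), Alas2 (1.35) and Hbb-bt (1.29), with sums of 1018 to 2463 and 3082 to 4992 CPM. Cardiomyocyte markers summed to 27602 to 37302 and 24490 to 28903 CPM, with Actn2 called higher (0.44) and Tnni3 lower (−0.54), and of the atrial markers Tbx5 was called lower (−1.15). These counts stand beside 22.5% of all genes called higher and 1.91% lower, and the endothelial and neural counts were below that share called higher. With TMM factors 3 fibroblast, 2 macrophage, 2 smooth muscle and pericyte and 1 neural marker were called higher, and no proliferation, endothelial or blood marker was. Of the cardiomyocyte markers none was then called higher and 3 were called lower, Tnni3, Myl2 and Tnnt2. With that scaling 3.92% of all genes were called higher and 5.69% lower. Apart from the atrial ones named above, no marker was at 0 in all libraries of a group. The part of these cell types in the tubulin values was not tested.

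The genes whose log2 CPM followed the log2 of the members' sum most closely over the 17 libraries were Ssr2 (r = 0.956), Rpn1 (0.953), Gm4366 (0.946), Ebp (0.943) and Copz1 (0.942), where the median of all genes was 0.497. After subtraction of each group's mean they were Rpn1 (0.936), Gm4366 (0.926), Ckap4 (0.926), Ssr2 (0.924) and Ebp (0.921), with a median of 0.316. The libraries share these values' scaling and depth, and S14 was low throughout, so the coefficients are given as a description only.

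Promoters from RefSeq (GRCm38.p6, the assembly of mm10) were found for 8 of the 10 members, as windows of 300 bases around the annotated start. Those of Tubb2a (chr13:34077959-34078258, minus strand) and Tuba1a (chr15:98953452-98953751, minus strand) are shown because both genes separated all TAC from all Sham libraries in CPM. Capitals mark the CCAAT box, the GC box (GGGCGG) and the TATA box (TATAAA) on either strand.
Tubb2a: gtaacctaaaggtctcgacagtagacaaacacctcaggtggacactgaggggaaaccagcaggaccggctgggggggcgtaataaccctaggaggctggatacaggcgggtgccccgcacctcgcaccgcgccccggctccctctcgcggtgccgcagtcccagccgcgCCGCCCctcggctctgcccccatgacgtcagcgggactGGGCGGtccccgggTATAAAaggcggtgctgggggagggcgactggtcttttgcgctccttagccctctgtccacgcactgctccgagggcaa
Tuba1a: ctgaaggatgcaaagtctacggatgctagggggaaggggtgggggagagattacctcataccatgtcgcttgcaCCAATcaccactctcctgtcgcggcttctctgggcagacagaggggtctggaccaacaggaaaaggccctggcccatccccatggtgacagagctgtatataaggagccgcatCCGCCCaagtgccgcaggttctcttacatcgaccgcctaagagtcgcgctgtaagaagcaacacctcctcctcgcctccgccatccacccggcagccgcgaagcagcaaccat
GGGCGG or its complement was present in 6 of the 8 windows and in 35.7% of all 32851 windows. CCAAT was present in 4 of 8 (Tuba1a, Tuba1c, Tubb4b and Tubb5) and in 37.4% of all. TATAAA was present in 2 of 8 (Tubb2a and Tubb4b) and in 13.6% of all. The consensus sites of serum response factor (CArG box) and of MEF2 were found in none of the 8 windows and in 1.63 and 1.86% of all.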

How the data were processed

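mRNA libraries of the left ventricular apex were prepared by the authors with NEBNext Ultra II, aligned with STAR 2.3.7 to mm10 in Partek Flow, and deposited as CPM with 0.0001 added to each value. The library protocol includes a strand specificity reagent. How reads shared between genes were counted, and with which strand setting, is not given in the sources used here. Whole reads could not be recovered for all genes (77.8 to 81.0% of low values were whole), so no count test was run. log2 CPM of the 16218 genes with a CPM of 0.5 or more in at least 3 of 17 libraries was fitted with limma 3.58.1 in R 4.3.3 (lmFit, eBayes with a trend, 1 mean per group, 13 residual degrees of freedom). Comparisons were contrasts of these means, with Benjamini-Hochberg adjustment over all genes. On simulated data with this design and 200 changed genes, 55.0% of 2-fold changes were called for TAC Veh against Sham Veh. Of changes of 0.5 on the log2 scale, 13.8% were called. In the data 3648 genes were called higher, far more than were changed in the simulation, so these percentages do not give the power here.

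Shares were computed in Python 3.11.15 from CPM (less the constant) per kb of the longest principal coding transcript in GENCODE vM21. Coordinates and transcript sequences are from that annotation. Depth was taken from the step between low values, and read numbers derived from it cover counting error only. Members, gene lists and named genes were chosen with earlier results of these data known. Named genes of each list are up to 3 higher and 3 lower with the largest log2 fold change among those called in TAC Veh against Sham Veh with a mean CPM of 1 or more. Ttl, Vash1, Vash2, Svbp, Atat1, Hdac6, Map4, Stmn1, Tubb3 and Tubb4a are given whatever their values, as are the 5 genes most correlated with the members' sum, before and after subtracting group means. Some sequences and 1 gene that this rule names are not reported here.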

Additional observations from a re-analysis of the deposited data

Results flagged for a closer look

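In groups of 4 to 10 libraries, 42 sets of values were screened for a single library that stood apart from its group by Dixon's criterion at the 95% level, which chance meets in about 1 of 20, and 2 did. Library S3 of the TAC 29P group had 253 CPM of Tuba1b, whereas the other 5 libraries of that group lay between 174 and 200. Library S5 of the Sham Veh group had a Tuba8 share of 12.6% of the members' CPM per kb, whereas the other 4 lay between 9.02 and 10.02%.

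The effect of surgery on Tuba4a differed between treatments by 0.60 on the log2 scale at an unadjusted p of 0.0401 in limma, with an adjusted p of 0.998 over all genes. Without S4 (Sham 29P) it was 0.86, with an adjusted p of 0.430 in limma. Without the 3 libraries that held atrial transcripts this difference was 0.53 (unadjusted p = 0.103 in limma), and with a term for the animal-number run it was 0.10 (unadjusted p = 0.738 in limma).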

How the results depend on the processing

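No paired analysis was possible because each replicate number is the number of 1 library and no number recurs between groups. With the deposited scaling 4 members were called in TAC Veh against Sham Veh (4 higher, 0 lower), 8 in TAC 29P against Sham 29P and 8 over both treatments. With TMM factors these were 1 (0 higher, 1 lower), 4, and 6 (5 higher, 1 lower). Totals without mitochondrially encoded genes left 2 in the first comparison, and a term for the animal-number run gave 7 in the first and 4 in the second. Leaving out 1 library at a time gave 0 to 5 called in the first, 4 to 10 in the second and 8 to 9 over both treatments, with S2, S16 and S6 deciding the first (0, 0 and 1) and S14 the second (4). Members called for 29P within TAC, within Sham and for the interaction stayed at 0 in every setting run, with 0 to 1, 0 to 9 and 0 to 6 past the unadjusted threshold when 1 library was left out. An added setting, chosen after seeing the data, combined TMM factors with leaving out S14 and the 3 libraries that held atrial transcripts. It gave 6 called in the first comparison (5 higher, 1 lower), 0 in the second and 7 over both treatments (6 higher, 1 lower). The microtubule lists had 35 genes called in TAC Veh against Sham Veh, 8 with TMM factors, 19 without mitochondrially encoded genes, 10 in the added setting and 11 to 43 with 1 library left out (22 without S6, 23 without S19, 11 without S2). In TAC Veh against Sham Veh the tubulin total differed by a log2 of 0.20, −0.13 with TMM factors and 0.06 to 0.34 with 1 library left out. Of the isotype shares 5 did not overlap, 5 to 6 with 1 library left out and 8 without the libraries holding atrial transcripts. Of all genes, set against the members' summed CPM without division by length, 10.2% did not overlap, and 14.6% in that smaller set.

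Several log2 fold changes changed sign, none of them called on either side. With TMM factors these were Tuba8 (−0.31) and Tubb4b (−0.085) in TAC Veh against Sham Veh, Tuba4a (−0.11) in TAC 29P against Sham 29P, Tuba8 (−0.040) over both treatments and Tubb6 (0.021) for 29P within TAC. Without mitochondrially encoded genes they were Tuba8 (−0.13) and Tubb6 (0.013) in the first and last of these comparisons. With the term for the run they were Tuba4a (−0.063) in TAC 29P against Sham 29P, and Tuba1b (−0.34), Tuba8 (−0.18) and Tubb4b (−0.21) for 29P within TAC. In the added setting they were Tuba8 (−0.23), Tuba4a (−0.22) and Tuba8 (−0.059) in the 3 surgery comparisons. For 29P within Sham that setting gave 0.010 for Tuba1b, 0.040 for Tuba4a, 0.38 for Tubb2b, 0.046 for Tubb4b, 0.028 for Tubb5 and 0.15 for Tubb6. With 1 library left out, Tuba8 in TAC Veh against Sham Veh ran from −0.16 to 0.15 and Tuba4a over both treatments from −0.17 to 0.069. For 29P within TAC, Tuba1a ran from −0.25 to 0.025, Tuba1b from −0.17 to 0.22, Tubb2a from −0.43 to 0.015, Tubb4b from −0.11 to 0.21, Tubb5 from −0.27 to 0.071 and Tubb6 from −0.25 to 0.13. Rescaling with TMM factors or without mitochondrially encoded genes moves all estimates of a comparison by the same amount. The cause of the other changes was not tested. Omitting the filter gave 3 called in the first comparison. Settings with no filter, with 0.1 or 1 added to the CPM and with only the groups compared changed no count of called members by more than 1.5 times.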
